A study of Mus musculus with 10 samples.

Results

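The fibroblast and stromal matrix genes described here are 10 genes, Dcn, Lum, Bgn, Pdgfra, Pdgfrb, Fbln1, Fbln2, Fn1, Thy1 and Postn, out of 54256 genes in the deposited table. They were chosen by symbol, and each symbol had 1 row. The RNA came from the infundibulum, where the oviduct opens beside the ovary, of C57BL/6 mice aged 8 to 10 weeks given saline or recombinant murine prolactin (rmPRL) over 7 days. The mice of the saline group were labelled WT, and no other allele or agent was named for either group. There were 5 libraries a group, and 4 infundibula from 2 animals went into each. The estrous stage was proestrus for all 5 saline and 4 rmPRL libraries and diestrus for rmPRL library 2. Values are TPM, a relative transcript abundance; they are corrected for transcript length and scaled to a common total, so that levels of different genes can be set side by side but sequencing depth cannot be read from them.

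Fibroblasts are the cells that build the connective tissue under an epithelium. They secrete collagens, fibronectin and small proteoglycans, and they carry receptors for platelet-derived growth factors (PDGF), which drive the growth of mesenchymal cells. In the oviduct this stroma lies between the folded epithelium and a thin muscle coat. The pituitary hormone prolactin acts on cells by way of JAK2, a kinase, and STAT5, a transcription factor. Several of the genes are not limited to fibroblasts: Pdgfrb is also a marker of pericytes, Thy1 is also carried by T cells in mice, and Fn1 is made by many cell types.

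The libraries carried the markers of oviduct epithelium at high levels, with the secretory cell glycoprotein Ovgp1 between 4923 and 10134 TPM and Foxj1, the regulator of motile cilia, between 552 and 821 TPM. The columns summed to between 999445 and 999607 TPM, and between 15975 and 16615 genes reached 1 TPM. The share of TPM from mitochondrially encoded genes was 5.25% ± 0.292 under saline and 6.64% ± 0.484 under rmPRL (SD over 5 libraries each). The groups differed at p = 0.00794 in a two-sided exact permutation test, the smallest it can give. The last section gives the fit with TPM rescaled without mitochondrial genes and the 50 most abundant genes. Beyond that, the part of this share in the results below was not tested. Saline library 3 stood apart from the other libraries. It had the lowest value of all 10 libraries for 9 of the 10 stromal genes, against 13.5% of all tested genes, and its summed level of the 10 genes was 722 TPM, where the other saline libraries had 1028 to 1470 TPM and the rmPRL libraries 1077 to 1398 TPM. Saline library 4 and rmPRL library 2 had high values of Cyp11a1, the enzyme that starts steroid synthesis in ovarian cells, at 135 and 125 TPM, against at most 6.27 TPM elsewhere.

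The stromal genes were detected in every library, and all 10 passed the filter of at least 1 TPM in at least 5 libraries. Dcn was the most abundant, at 478 ± 128 TPM in saline (SD, n = 5), and its mean over all 10 libraries was above that of 98.5% of the tested genes. Fn1 followed, at 277 ± 44.3 TPM (SD, n = 5). Bgn, Lum and Postn formed a middle range with saline means of 104, 78.5 and 66.4 TPM. Pdgfra, Fbln1 and Fbln2 had saline means of 22.8, 21.3 and 17.1 TPM, and their order was not fixed: Pdgfra was above Fbln1 in 7 of 10 libraries, and Fbln1 was above Fbln2 in 7 of 10. Pdgfrb and Thy1 were the lowest, with saline means of 10.5 and 8.18 TPM. The order Dcn above Fn1 and Postn above Pdgfra held in all 10 libraries, and Fn1 above Bgn, Bgn above Lum, and Lum above Postn in 9 each.

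RefSeq promoter windows of GRCm38.p6, from 250 bases before to 50 bases after the start site, matched 5 of the 10 genes by symbol with 7 windows (Bgn, Pdgfra, Fbln1, Fbln2 and Postn). The 3 below are shown as 1 proteoglycan, 1 receptor and 1 matricellular protein whose windows differ in the motifs they hold. Capitals mark matches to the searched motifs on either strand.
Bgn, chrX:73483351-73483650, plus strand: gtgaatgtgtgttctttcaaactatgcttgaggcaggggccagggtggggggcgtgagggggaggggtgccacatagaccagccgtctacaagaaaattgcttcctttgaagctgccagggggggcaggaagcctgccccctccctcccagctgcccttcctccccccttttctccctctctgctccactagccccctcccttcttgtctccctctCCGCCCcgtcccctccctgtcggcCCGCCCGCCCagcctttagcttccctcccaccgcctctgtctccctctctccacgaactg
Pdgfra, chr5:75152001-75152300, plus strand: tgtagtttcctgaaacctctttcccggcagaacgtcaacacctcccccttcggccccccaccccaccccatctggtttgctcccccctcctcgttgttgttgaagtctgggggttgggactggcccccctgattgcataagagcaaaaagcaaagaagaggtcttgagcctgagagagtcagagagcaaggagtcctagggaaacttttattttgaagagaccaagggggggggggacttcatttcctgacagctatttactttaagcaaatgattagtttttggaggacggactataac
Postn, chr3:54360857-54361156, plus strand: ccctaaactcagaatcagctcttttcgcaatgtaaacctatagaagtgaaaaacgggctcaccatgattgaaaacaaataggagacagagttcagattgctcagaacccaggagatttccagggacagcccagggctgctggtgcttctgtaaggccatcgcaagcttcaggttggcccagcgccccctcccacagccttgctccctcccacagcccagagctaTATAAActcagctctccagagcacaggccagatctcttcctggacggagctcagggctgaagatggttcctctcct
The motifs were TATAAA (the TATA box), CCAAT (the CAAT box), GGGCGG (the GC box), TGANTCA (the AP-1 site) and TTCNNNGAA (the core bound by STAT factors), with overlapping matches of a motif counted separately. Bgn held 3 matches to GGGCGG, Pdgfra held no match to any of the motifs, and Postn held TATAAA starting at position -26 from the start site. Over the 7 windows, the GC box letters were found in 3, the TATA letters in 1, the CAAT letters in 1, and the AP-1 and STAT letters in 0. Among 32851 RefSeq promoter windows of the same length, 35.7% held the GC box letters, 13.6% the TATA letters, 37.4% the CAAT letters, 7.81% the AP-1 letters and 8.30% the STAT letters.

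The comparison of rmPRL with saline asked whether 7 days of prolactin changed the transcripts of these genes in the infundibulum. None of the 10 genes passed an adjusted p of 0.05 (limma on log2(TPM + 1), Benjamini-Hochberg over 16131 genes, two-sided), where 0.0248% of all tested genes passed (0.0186% higher and 0.00620% lower in rmPRL). At an unadjusted p under 0.05 there was 1 gene, Lum, which was higher in rmPRL, against 16.0% of all tested genes (6.14% higher and 9.91% lower). For 9 of the 10 genes the mean was higher in rmPRL, against 43.5% of tested genes, and Fn1 was the exception. The median log2 difference of the 10 genes was 0.27, against -0.026 over all tested genes. It was 0.12 without saline library 3, where 7 of the 10 genes were higher in rmPRL, and 0.40 without saline library 1. Without rmPRL library 2, the diestrus library, the median was 0.19 and all 10 genes were higher in rmPRL. The groups overlapped for all 10 genes, while they did not overlap for 3.07% of tested genes.

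**Figure D1:**
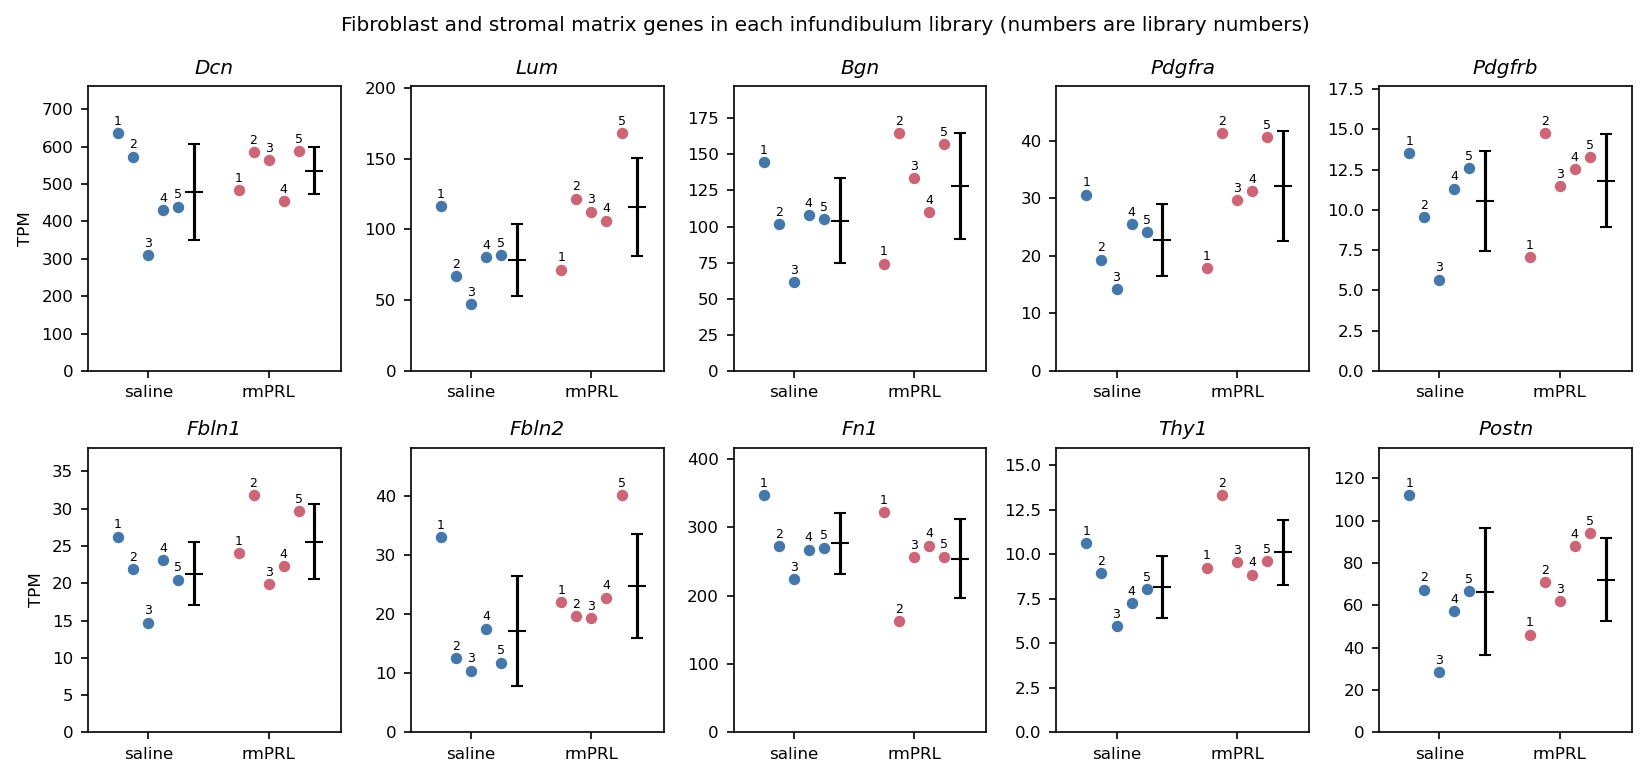
TPM of each of the 10 stromal genes in each library, with linear axes from 0; points are libraries numbered as in the labels, and black bars are the mean ± SD of 5 libraries. Saline library 3 is the lowest point in every panel except Fn1, where rmPRL library 2 is lowest at 163 TPM, and the groups overlap in all panels.

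Lum, Dcn and Bgn encode lumican, decorin and biglycan, small leucine-rich proteoglycans that bind collagen fibrils and regulate their thickness. Lum was at 117, 66.9, 47.1, 80.1 and 81.8 TPM in saline libraries 1 to 5 and at 71.4, 122, 112, 106 and 168 TPM in rmPRL libraries 1 to 5. Of the rmPRL libraries, 2 lay above the highest saline library, rmPRL library 1 lay among the lower saline values, and rmPRL library 5 was the highest of all. The means were 78.5 ± 25.4 and 116 ± 34.7 TPM (SD, n = 5 each). The log2 difference of Lum was 0.56 (SE 0.251, 95% interval from 0.0094 to 1.12, limma adjusted p = 0.306). When any 1 library was left out, it lay between 0.40 (saline 3, limma adjusted p = 0.478) and 0.72 (rmPRL 1). In these pooled tissue libraries, fewer cells of a type and less RNA per cell cannot be told apart.

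Dcn was at 636, 574, 310, 431 and 440 TPM in saline libraries 1 to 5 and at 483, 586, 565, 454 and 589 TPM in rmPRL libraries 1 to 5. All rmPRL values lay inside the saline range. For Dcn the log2 difference was 0.20 (SE 0.172, 95% interval from -0.18 to 0.58, limma adjusted p = 0.57), and with single libraries left out it ran from 0.055 (saline 3) to 0.31 (saline 1). Bgn was at 144, 102, 61.5, 108 and 105 TPM in saline libraries 1 to 5 and at 74.2, 164, 134, 110 and 157 TPM in rmPRL libraries 1 to 5. The rmPRL values spanned most of the saline range and went beyond it in rmPRL libraries 2 and 5. For Bgn it was 0.29 (SE 0.249, 95% interval from -0.26 to 0.84, limma adjusted p = 0.571), and with single libraries left out it ran from 0.11 (saline 3) to 0.47 (rmPRL 1), with 0.19 when rmPRL library 2 was left out.

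Dcn and Lum are neighbours on chromosome 10 of GRCm38 (97479609 to 97518143 and 97565128 to 97572703, both on the plus strand), with 46984 bases between them. Kera and Epyc, which encode keratocan and epiphycan of the same protein family, were at or near 0: Kera did not exceed 0.024 TPM and Epyc 0.079 TPM in any library. Of 17 genes of the small leucine-rich proteoglycan family, 13 were tested, 9 had a higher and 4 a lower mean in rmPRL, and none passed the threshold in either direction (limma). Of the 10 tested family members other than Dcn, Lum and Bgn, 6 were higher and 4 lower, with a median log2 difference of 0.11. In saline and rmPRL respectively, Ogn, which encodes osteoglycin, was at 116 ± 39.2 and 151 ± 47.7 TPM, Podn, which encodes podocan, at 16.7 ± 8.40 and 11.3 ± 3.66 TPM, and Fmod, which encodes fibromodulin, at 2.17 ± 0.522 and 2.91 ± 1.06 TPM (SD, n = 5 each).

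A ratio of 2 genes within a library does not depend on how that library was scaled. The ratio of Dcn to Lum was 5.37 to 8.58 in saline, with a median of 5.45, and 3.51 to 6.77 in rmPRL, with a median of 4.82. In 4 rmPRL libraries it lay below the lowest saline library. Over the 45 ratios between the 10 genes, the groups did not overlap for 0. These ratios were looked at after the values were seen, and they carry no test.

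Pdgfra and Pdgfrb encode the PDGF receptors alpha and beta, receptor tyrosine kinases of mesenchymal cells. Pdgfra was at 30.6, 19.3, 14.3, 25.5 and 24.1 TPM in saline libraries 1 to 5 and at 17.9, 41.3, 29.7, 31.2 and 40.7 TPM in rmPRL libraries 1 to 5. Of the rmPRL libraries, 3 lay above all saline libraries and rmPRL library 1 lay near the lowest. The log2 difference of Pdgfra was 0.47 (SE 0.243, 95% interval from -0.071 to 1.00, limma adjusted p = 0.361), and with single libraries left out it ran from 0.32 (saline 3) to 0.66 (rmPRL 1). Pdgfrb was at 13.5, 9.56, 5.66, 11.3 and 12.6 TPM in saline libraries 1 to 5 and at 7.08, 14.7, 11.5, 12.5 and 13.3 TPM in rmPRL libraries 1 to 5. Its groups covered nearly the same range. For Pdgfrb it was 0.17 (SE 0.228, 95% interval from -0.33 to 0.67, limma adjusted p = 0.73), and its direction depended on saline library 3, without which it was -0.017. It was 0.33 when rmPRL library 1, 0.26 when saline library 1 and 0.085 when rmPRL library 2 was left out.

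The ratio of Pdgfra to Pdgfrb ran from 1.91 to 2.52 in saline and from 2.49 to 3.07 in rmPRL, with 4 rmPRL libraries above the highest saline library; it was also looked at after the values were seen. The ligands of these receptors were measured as well. In saline and rmPRL respectively, Pdgfa was at 40.3 ± 6.36 and 36.9 ± 2.59 TPM, Pdgfc at 24.9 ± 2.74 and 22.3 ± 1.95 TPM, Pdgfd at 10.0 ± 1.15 and 9.14 ± 1.74 TPM and Pdgfb at 9.13 ± 0.631 and 10.1 ± 1.98 TPM (SD, n = 5 each). None of the 6 PDGF ligands and receptors passed the threshold (limma); 3 of the ligands had lower and 1 a higher mean in rmPRL, with a median log2 difference of -0.12 over the 4 ligands.

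Fbln1 and Fbln2 encode fibulins, secreted glycoproteins of basement membranes and elastic fibres. Fbln2 was at 33.1, 12.6, 10.5, 17.6 and 11.8 TPM in saline libraries 1 to 5 and at 22.0, 19.7, 19.3, 22.8 and 40.2 TPM in rmPRL libraries 1 to 5. All rmPRL libraries lay above 4 of the saline libraries, and saline library 1 lay above 4 of the rmPRL libraries. The log2 difference of Fbln2 was 0.58 (SE 0.297, 95% interval from -0.076 to 1.24, limma adjusted p = 0.355), the largest of the 10 genes, and it was 0.40 with rmPRL library 5 left out and 0.84 with saline library 1 left out. Fbln1 was at 26.2, 21.9, 14.7, 23.1 and 20.5 TPM in saline libraries 1 to 5 and at 24.0, 31.8, 19.9, 22.3 and 29.7 TPM in rmPRL libraries 1 to 5. Of these rmPRL values, 2 lay above the saline range and 3 inside it. For Fbln1 it was 0.26 (SE 0.159, 95% interval from -0.093 to 0.60, limma adjusted p = 0.424), and with single libraries left out it ran from 0.14 (saline 3) to 0.34 (rmPRL 3).

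Among 18 tested genes of fibulins and elastic fibres other than Fbln1 and Fbln2, 15 had a higher and 3 a lower mean in rmPRL, 0 passed the threshold (limma), and the median log2 difference was 0.25. At an unadjusted p under 0.05 there were 2 higher and 1 lower, against 6.14% higher and 9.91% lower of all tested genes. Eln, which encodes elastin, was at 15.4 ± 4.97 TPM under saline and 34.2 ± 23.5 TPM under rmPRL, and Hmcn1, which encodes the fibulin-related hemicentin 1, at 2.00 ± 0.439 and 3.24 ± 0.868 TPM (SD, n = 5 each; limma adjusted p = 0.272 and 0.217). Ltbp3 and Ltbp4 encode proteins that hold latent TGF-beta in the matrix. Ltbp3 was at 144 ± 17.4 and 126 ± 10.0 TPM, and Ltbp4 at 157 ± 29.4 and 188 ± 26.1 TPM (SD, n = 5 each).

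Fn1 encodes fibronectin, which cells assemble into fibrils and bind through integrins. Fn1 was at 347, 273, 225, 267 and 270 TPM in saline libraries 1 to 5 and at 322, 163, 257, 273 and 257 TPM in rmPRL libraries 1 to 5. rmPRL library 2, the diestrus library, was the lowest of all 10 libraries for Fn1, while it was the highest for 5 of the other stromal genes (Bgn, Pdgfra, Pdgfrb, Fbln1 and Thy1). The log2 difference of Fn1 was -0.14 (SE 0.167, 95% interval from -0.51 to 0.23, limma adjusted p = 0.689), and with single libraries left out it ran from -0.23 (rmPRL 1) to 0.012 (rmPRL 2), with -0.21 for saline library 3 and -0.055 for saline library 1. Fn1 overlaps an antisense gene, Apol7d, with 292 shared exonic bases; Apol7d had a mean of 0.808 TPM. Of 10 fibronectin receptors and cross-linkers, 9 were tested and none passed the threshold (limma), with 6 higher, 3 lower and a median log2 difference of 0.045. The integrin subunits Itga5 and Itgb1, which together form the main fibronectin receptor, were at 19.6 ± 4.58 and 21.0 ± 3.96 TPM and at 162 ± 12.6 and 168 ± 18.2 TPM under saline and rmPRL (SD, n = 5 each).

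Postn encodes periostin, a matricellular protein that binds collagen and integrins. Postn was at 112, 67.3, 28.5, 57.2 and 66.8 TPM in saline libraries 1 to 5 and at 46.1, 70.8, 62.0, 88.0 and 94.0 TPM in rmPRL libraries 1 to 5. Every rmPRL value lay inside the saline range, which was the widest of the 10 genes, since the highest library was 3.94 times the lowest. Between the groups the log2 difference of Postn was 0.20 (SE 0.315, 95% interval from -0.49 to 0.90, limma adjusted p = 0.768), and with single libraries left out it ran from -0.066 (saline 3) to 0.42 (saline 1), with 0.35, 0.12 and 0.095 for rmPRL libraries 1, 4 and 5. Of the 16 other matricellular genes tested, 12 were higher and 4 lower, none passed the threshold (limma), and the median log2 difference was 0.12. Sparc, which encodes osteonectin, was at 261 ± 81.9 and 350 ± 119 TPM, and Ccn2, which encodes connective tissue growth factor, at 46.8 ± 14.0 and 28.0 ± 11.9 TPM under saline and rmPRL (SD, n = 5 each; limma adjusted p = 0.43 and 0.241).

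Thy1 encodes a small membrane glycoprotein of fibroblasts and, in mice, of T cells. Thy1 was at 10.6, 8.94, 5.99, 7.28 and 8.06 TPM in saline libraries 1 to 5 and at 9.26, 13.3, 9.56, 8.87 and 9.62 TPM in rmPRL libraries 1 to 5. All rmPRL libraries lay above 3 of the saline libraries, and rmPRL library 2 lay above all of them. Between the groups the log2 difference of Thy1 was 0.29 (SE 0.144, 95% interval from -0.033 to 0.60, limma adjusted p = 0.349), and with single libraries left out it ran from 0.19 (rmPRL 2, and likewise saline 3) to 0.38 (saline 1). Of 8 T cell genes, Lck reached 3.65 TPM, Trac 2.49 TPM and Cd3g 1.31 TPM, while Cd3e, Cd3d, Cd4, Cd8a and Cd8b1 did not exceed 0.698 TPM in any library. Their summed level was 4.03 to 6.43 TPM in saline and 5.26 to 7.88 TPM in rmPRL, lowest in saline library 3 and highest in rmPRL library 2, as Thy1 was. The mean of Lck and Trac, the 2 of these genes that passed the filter, followed the mean of the 10 stromal genes. It had r = 0.90 and rho = 0.68 over 10 libraries, and r was 0.76 without the 2 farthest libraries (saline 3 and rmPRL 5). The part of T cells in the level of Thy1 was not tested.

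**Figure D2:**
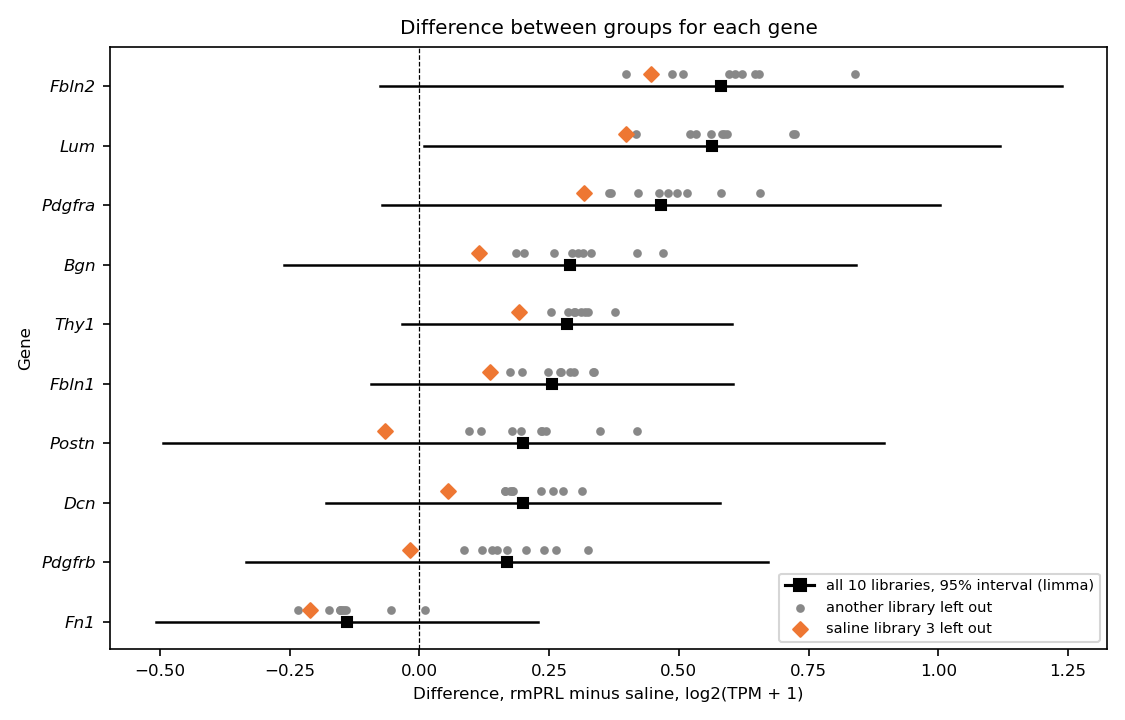
Difference between rmPRL and saline on the log2(TPM + 1) scale for each of the 10 genes; squares and lines are the limma estimate and its 95% interval over all 10 libraries, grey points leave out each other library in turn, and orange diamonds leave out saline library 3. The intervals of 9 genes hold 0, that of Lum does not, and without saline library 3 the values of Pdgfrb and Postn turn to -0.017 and -0.066.

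The 10 genes varied more between libraries than most genes did. Their median coefficient of variation was 27.8% in saline and 25.8% in rmPRL, against 12.0% and 10.6% over all tested genes. The highest library was between 2.05 times (Dcn) and 3.94 times (Postn) the lowest, with a median of 2.64 times, against a median of 1.50 times over the 15945 tested genes with no library at 0. This variation was shared. The median Pearson r over the 45 pairs was 0.72 on the log2(TPM + 1) scale over 10 libraries, against a median of 0.017 over all pairs of tested genes, and Spearman's rho had a median of 0.70. With each group's mean taken out of every gene, the median r was 0.71. Without saline library 3, the median r with no group mean taken out was 0.52.

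The closest pairs were Lum with Pdgfra (r = 0.96, rho = 0.93, permutation p = 3e-05 and 0.00029), Bgn with Pdgfra (r = 0.95, rho = 0.96, permutation p = 4e-05 and 5e-05) and Bgn with Pdgfrb (r = 0.93, rho = 0.90, permutation p = 0.00014 and 0.00086), over 10 libraries and adjusted over 45 pairs to 0.0009, 0.0009 and 0.00126 for r and to 0.00337, 0.00112 and 0.00645 for rho. Without the 2 libraries farthest from the median of the first gene, r was 0.93, 0.89 and 0.85. The receptors Pdgfra and Pdgfrb also followed each other (r = 0.91, rho = 0.88, permutation p = 9e-05 and 0.00167, adjusted over 45 pairs 0.00101 and 0.0107), and r was 0.85 without the 2 farthest libraries. Of the 45 pairs, 30 passed an adjusted p of 0.05 for r and 14 for rho. Among those 30 pairs, r without the 2 farthest libraries ran from 0.18 to 0.93 and was above 0.5 for 19 and not for the other 11. The 2 libraries were chosen for each first gene, and leaving them out narrows the range of its values. Their part in the relation of these pairs was not tested.

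Fn1 differed between the groups in how it ran with the other genes. In the saline libraries, Fn1 was highest in library 1 and lowest in library 3, as were the other 9 genes. In rmPRL it was highest in library 1, where Lum, Bgn, Pdgfra, Pdgfrb and Postn had their lowest rmPRL values, and lowest in library 2. With 5 libraries a group, no correlation is given within a group and this difference was not tested. Over all 10 libraries, which pool these patterns, its r with the other 9 genes ran from -0.28 with Pdgfra (rho = -0.18, permutation p = 0.444 and 0.633) to 0.28 with Fbln2 (rho = 0.37, permutation p = 0.438 and 0.298), and 0 of its pairs passed after adjustment over 45 pairs (0.526 for both r values, and 0.695 and 0.362 for the rho values). Without the 2 libraries farthest from the median of the first gene these r values were -0.48 and 0.29. Over the 36 pairs without Fn1 the median r was 0.78 and the lowest 0.51, between Pdgfrb and Fbln2.

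**Figure D3:**
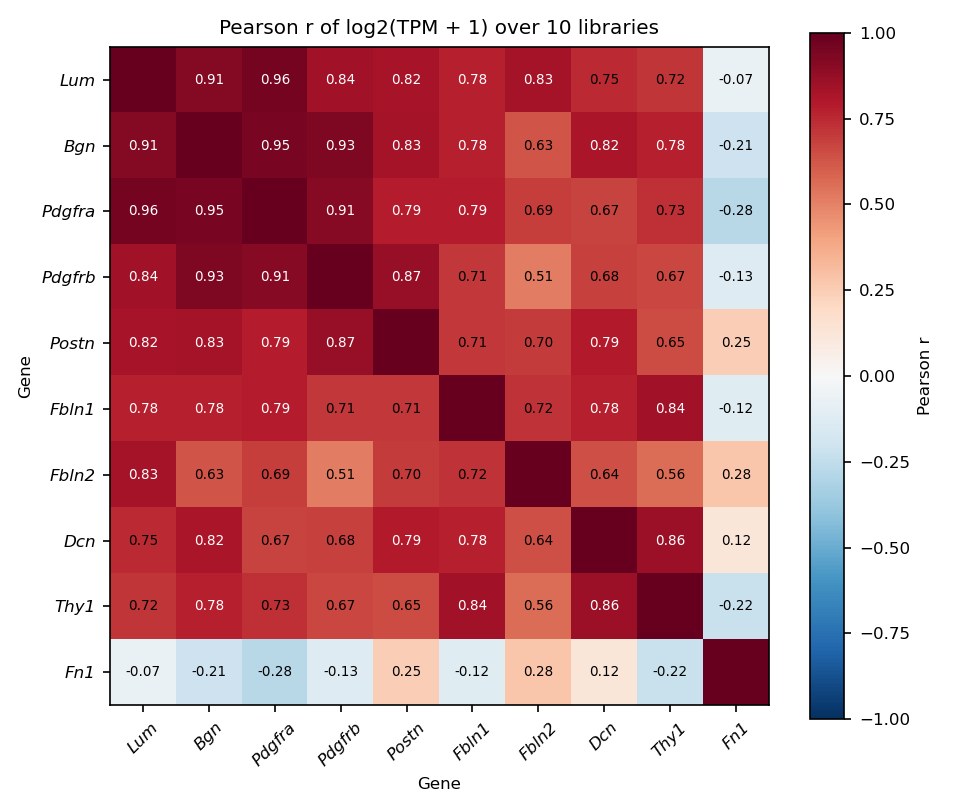
Pearson r of log2(TPM + 1) for each pair of the 10 genes over 10 libraries, with the r printed in each cell. The block of Lum, Bgn, Pdgfra and Pdgfrb lies between 0.84 and 0.96, and the row of Fn1 lies between -0.28 and 0.28.

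The mean of other fibroblast markers was high and low in the same libraries. Single markers did not all do so, and Dpp4 had r = -0.69 with the stromal mean over 10 libraries. The mean standardized level of 26 other fibroblast markers, among them collagens and mesenchymal transcription factors, followed that of the 10 genes with r = 0.98 and rho = 0.89 over 10 libraries, and r was 0.96 without the 2 libraries farthest from the median (saline 3 and rmPRL 5). Of these 26 markers, 23 had a higher and 3 a lower mean in rmPRL, none passed the threshold (limma), and the median log2 difference was 0.31. At an unadjusted p under 0.05 (limma), 4 were higher and 1 lower, against 6.14% higher and 9.91% lower of all tested genes. Col6a2, a chain of the microfibrillar collagen VI, was at 57.3 ± 28.4 TPM under saline and 113 ± 60.0 TPM under rmPRL, and Col15a1, a collagen of basement membrane zones, at 30.9 ± 10.4 and 53.2 ± 19.9 TPM (SD, n = 5 each; limma adjusted p = 0.297 and 0.249). Dpp4, a cell-surface peptidase found on some fibroblasts and on epithelia, was at 13.9 ± 3.16 and 9.95 ± 1.83 TPM (SD, n = 5 each; limma adjusted p = 0.235).

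Markers of other cell types of the tissue wall moved with the stromal genes, and their part in the result was not tested. The mean of 8 smooth muscle genes had r = 0.97 and rho = 0.89 with the stromal mean over 10 libraries, and r was 0.90 without the 2 farthest libraries. All 8 had higher means in rmPRL and none passed the threshold (limma); their summed level ran from 1199 TPM, in saline library 3, to 3376 TPM in saline and from 2082 to 3392 TPM in rmPRL. The corresponding r was 0.91 for 8 macrophage genes, 0.86 for 8 endothelial genes and 0.76 for 8 pericyte genes (rho 0.85, 0.84 and 0.64; without the 2 farthest libraries 0.89, 0.77 and 0.77). The summed macrophage genes were at 171 to 311 TPM in saline and 232 to 348 TPM in rmPRL. All 8 were higher in rmPRL, 5 of them at an unadjusted p under 0.05, against 6.14% of all tested genes. The summed endothelial genes were at 69.4 to 141 and 96.3 to 170 TPM, with 7 of 8 higher, 1 of them at an unadjusted p under 0.05 (limma). The summed pericyte genes were at 89.2 to 188 and 106 to 151 TPM, with 5 higher and 3 lower. At an unadjusted p under 0.05 (limma), 0 pericyte genes were higher and 1 was lower, against 6.14% higher and 9.91% lower of all tested genes. No gene of these lists was at 0 in all libraries.

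Across the libraries, the means of the epithelial lists ran the other way. The mean of 6 genes of secretory and multiciliated cells had r = -0.82 and rho = -0.85 with the stromal mean over 10 libraries, and r was -0.88 without the 2 farthest libraries. Between the groups this list was split, with 4 lower (1 of them, Ovgp1, at an unadjusted p under 0.05) and 2 higher means in rmPRL (Foxj1 and Tppp3), and 0 passed the threshold (limma). For 8 general epithelial genes r was -0.64, rho -0.77 and r without the 2 farthest libraries -0.51. Of these 8 genes, 7 had lower means in rmPRL and 0 passed the threshold (limma). At an unadjusted p under 0.05 there were 3 lower, against 9.91% of all tested genes. Epcam, an adhesion molecule of epithelia, was at 293 ± 17.5 and 257 ± 26.2 TPM under saline and rmPRL (SD, n = 5 each). The summed general epithelial genes were at 2210 to 2464 TPM in saline and 1778 to 2350 TPM in rmPRL. TPM share a common total, so a higher share of 1 set of transcripts lowers the share of the rest. The part of this in the epithelial values was not tested.

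Lists for the tissue surface, fat and ovarian cells gave lower r values, and the differences between lists were not tested. The r with the stromal mean over 10 libraries was 0.16 for 7 mesothelial genes, 0.18 for 5 adipocyte genes, 0.11 for 4 luteal and theca genes and 0.15 for 3 granulosa genes (rho 0.055, 0.32, -0.0061 and 0.18; without the 2 farthest libraries -0.18, 0.43, 0.084 and 0.36). For single mesothelial genes, r ran from -0.67 to 0.55. Of these 7 genes, 5 had higher and 2 lower means in rmPRL. At an unadjusted p under 0.05 (limma) there were 2 higher, against 6.14% of all tested genes. The summed adipocyte genes ran from 19.9 to 117 TPM in saline and from 13.3 to 196 TPM in rmPRL, and were highest in rmPRL library 2 and lowest in rmPRL library 4. The summed luteal and theca genes ran from 41.2 to 402 and from 35.4 to 475 TPM. Red blood cell genes had r = 0.54 and a higher rho of 0.84, and r was 0.81 without the 2 farthest libraries. Schwann cell genes had r = -0.59 (rho -0.81, and -0.55 without the 2 farthest libraries). Over all 19 lists, 159 genes other than the 10 were tested and 0 passed the threshold (limma). Of these, 22 had an unadjusted p under 0.05, against 16.0% of all tested genes.

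**Figure D4:**
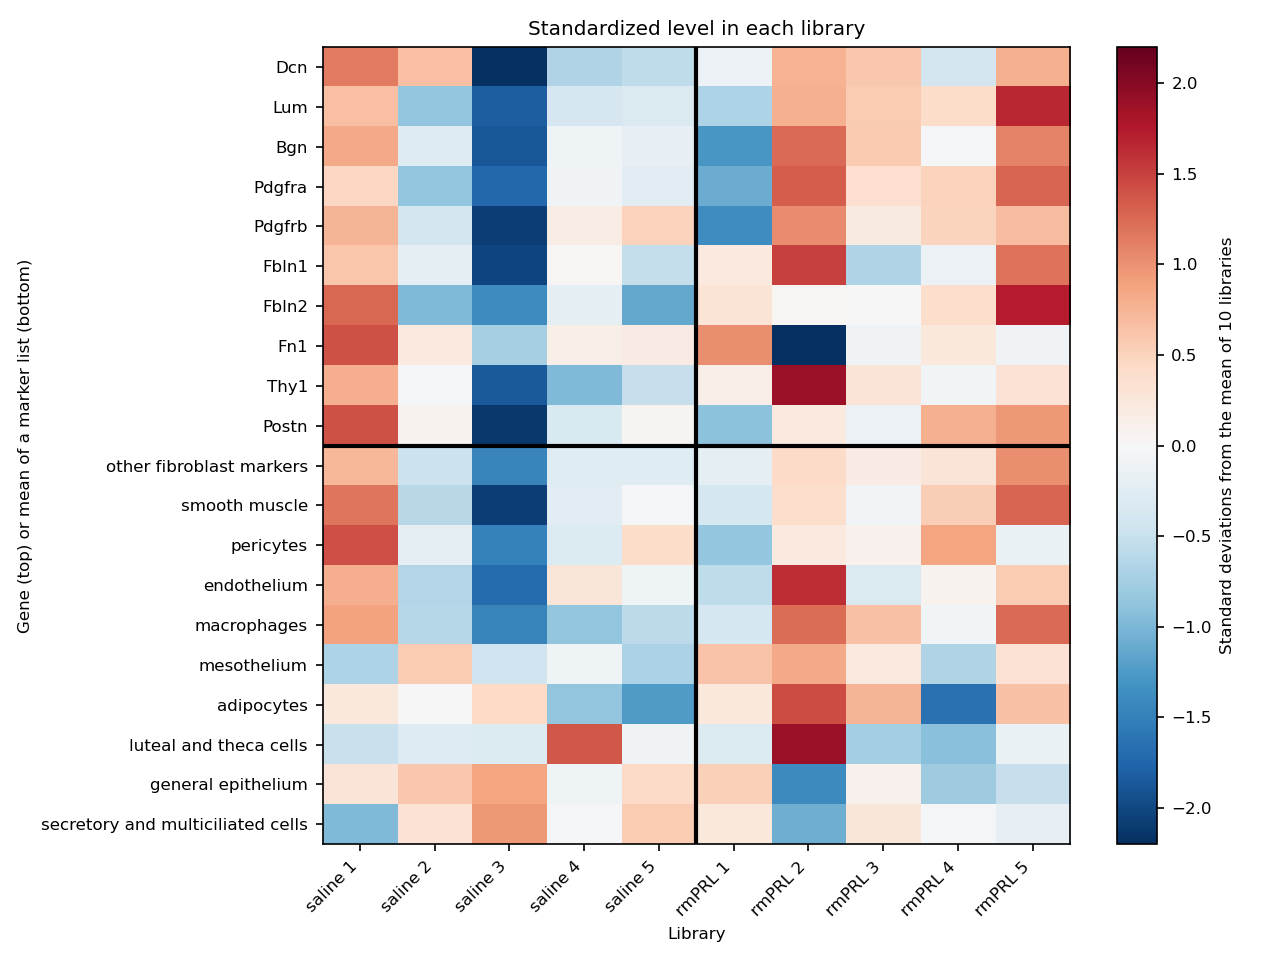
Standardized log2(TPM + 1) of the 10 stromal genes (top) and mean standardized level of marker lists with the 10 genes left out (bottom) in each library, in standard deviations from the mean of 10 libraries. Saline library 3 is low for 9 of the 10 genes and for other fibroblast, smooth muscle, pericyte, endothelial and macrophage markers, and rmPRL library 2 is low for Fn1 and for the epithelial lists.

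Among 9809 named genes with a mean of at least 10 TPM, the 10 whose levels over 10 libraries were most like the mean of the stromal genes were Col16a1, Zyx, Prrx1, Tagln, Gng2, Mdk, Csrp1, Smtn, Dstn and Stab1, with r from 0.95 to 0.98. Without the 2 farthest libraries their r ran from 0.85 for Smtn to 0.95 for Dstn. Col16a1, a fibril-associated collagen, had the highest r (0.98, rho 0.95) and was at 24.9 ± 8.80 TPM under saline and 33.7 ± 8.22 TPM under rmPRL (SD, n = 5 each). Prrx1 is a transcription factor of mesenchyme, Mdk a secreted growth factor, and Stab1 a scavenger receptor of macrophages and some endothelia. Tagln, Smtn and Csrp1 are genes of smooth muscle, Zyx is a protein of focal adhesions and Dstn an actin-severing protein. With the group means taken out, 7 of the 10 were again among the 10 with the highest r. The lowest r belonged to Dyrk3, a protein kinase, at -0.98 (rho -0.94), followed by Slc25a32, Uhrf1bp1l, Bbs2 and Iqck, from -0.95 to -0.94; Bbs2 encodes a subunit of the BBSome, a complex of cilia.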

How the data were processed

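The submitters' processing notes and the series text describe stranded poly(A) libraries read as pairs of 100 bases (80 M reads stated per sample), trimmed with Trimmomatic, aligned to mm10 with HISAT2, counted with featureCounts and compared with DESeq2; no versions were given in the sources used here. The authors deposited TPM, named as scaled TPM. Neither their formula nor the strand option used in counting is stated in the sources used here. TPM hold no depth, so counting error is unknown and no count model was run.

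From these values, limma 3.58.1 in R 4.3.3 (trend and robust estimation, group as the only term) was fitted to log2(TPM + 1) of the 16131 genes that reached 1 TPM in 5 or more libraries, with Benjamini-Hochberg adjustment over all of them and a threshold of 0.05. This scale understates differences of low genes. The fit was also run on simulated data in which the noise was independent between genes. Those data lack the shared variation seen in these libraries, and no conclusion is drawn from them. Nothing in the labels says how animals were assigned to pools, so p-values measure the spread between these libraries. Correlations used 100000 permutations; standardized levels have the mean over 10 libraries removed and are divided by the SD. The 10 genes, the marker lists and the tests were chosen with earlier results of these data known. From each list, up to 4 genes with the smallest p and a mean of at least 1 TPM could be named, and paralogs by level; Kera, Epyc and the T cell genes were named for their low levels. Genes most like the stromal mean were the 10 highest and 5 lowest by r with a mean of at least 10 TPM. Coordinates are from GENCODE vM21 (GRCm38, the assembly of mm10), and promoters from RefSeq, GRCm38.p6. Alternatives were 2 other pseudocounts, 2 other filters, 3 scalings, limma without trend and robust estimation, array weights, a block for replicate number, and fits that omitted each library in turn or both libraries with high luteal markers.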

Additional observations from a re-analysis of the deposited data

Results flagged for a closer look

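In 2 cases a library lay far from the other 4 of its group relative to the range of the group, by Dixon's criterion for 5 values, which chance meets in about 1 of 20 groups; 20 groups of 5 were examined. Fbln2 in rmPRL library 5 was at 40.2 TPM, where the other rmPRL libraries were at 19.3 to 22.8 TPM. Thy1 in rmPRL library 2, the diestrus library, was at 13.3 TPM, where the other rmPRL libraries were at 8.87 to 9.62 TPM.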

How the results depend on the processing

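Under all 21 alternatives 0 of the 10 genes and 0 of the 159 other list genes passed the threshold (limma). The lowest adjusted p of a stromal gene was 0.0859, for Fbln2 with array weights. With TPM rescaled without mitochondrial genes and the 50 most abundant genes, the median log2 difference of the 10 genes was 0.30, against 0.27 in the main fit. The log2 differences kept their direction except in 4 cases: without saline library 3 that of Pdgfrb was -0.017 and that of Postn -0.066, and that of Fn1 was 0.012 without rmPRL library 2 and 0.0029 without both libraries with high luteal markers. With single libraries left out, the log2 difference ran from -0.017 to 0.33 for Pdgfrb, from -0.066 to 0.42 for Postn and from -0.23 to 0.012 for Fn1. Over all genes the count past the threshold was 4; it was 0 with no filter on low values (where 3276 had an unadjusted p under 0.05), 270 when array weights were used, 2 with the replicate number as a block, and 1 to 18 with single libraries left out. The cause of these changes in direction and count was not tested. Same-numbered libraries did not deviate together (r over genes from -0.25 to 0.11), so the number was not taken as a pairing. The block could not end a call among the 10 genes, since none had one. Nor could it move their log2 differences, since each number occurs once in each group. TPM carry no depth, so no limit from counting error can be given, and 5 libraries a group leave wide intervals: that of Postn, for example, runs from a 0.71-fold to a 1.86-fold level in rmPRL.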
